A study of Mus musculus with 36 samples.

Results

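Glycolysis breaks glucose down to pyruvate, and the transporters at both ends of the route bring glucose into the muscle fibre and move lactate across its membrane. The 31 genes described here encode the glucose transporters, the glycolytic enzymes in their muscle and general isoforms, the enzymes that set the level of the phosphofructokinase activator, the side branches through glycerol phosphate and bisphosphoglycerate, lactate dehydrogenase and the lactate transporters. They were taken by name from a deposited table of 45802 gene rows, of which 17873 had a value and 13404 passed the filter on low signal, and all 31 had values and passed. RNA came from soleus, a slow mouse muscle, and extensor digitorum longus (EDL), a fast one. The tested animals carried floxed genes for estrogen-related receptors (ERRs), nuclear receptors known for driving oxidative metabolism, together with Cre recombinase.

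There were 3 classes of deletion, each with its own wild-type (WT) littermates: ERRalpha alone (mKO), ERRbeta with ERRgamma (dmKO) and ERRalpha with ERRgamma (dmKO). From the column names, the WT animals were read as floxed without Cre. Each class was measured in both muscles with 3 libraries per group, 36 in all. All mice were 1-year-old males on the C57BL/6JBom background, kept at 22 °C with 12 h of light. The Cre was driven by the human alpha-skeletal actin promoter, which acts in muscle fibres, so the other cells of a whole muscle kept their receptors. Values are log2 signals, and a change is the knockout-labelled mean minus the WT mean ± SE, where each group has 3 libraries. A gene was called at a limma adjusted p under 0.05. Fewer expressing cells and less RNA per cell cannot be told apart in these bulk samples.

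The receptor genes gave only a partial check of the labels. Esrra, encoding ERRalpha, was lower in ERRalpha/ERRgamma dmKO-labelled EDL by -2.23 ± 0.12 and in the soleus of that class by -0.57 ± 0.12. In the ERRalpha class it was not called, with changes of -0.19 ± 0.12 in EDL and 0.33 ± 0.12 in soleus. Esrrg, encoding ERRgamma, was higher in ERRalpha/ERRgamma dmKO-labelled soleus by 1.21 ± 0.15, in ERRbeta/ERRgamma dmKO-labelled soleus by 1.09 ± 0.15, in EDL labelled ERRalpha/ERRgamma dmKO by 0.51 ± 0.15 and in ERRalpha mKO-labelled EDL by 0.61 ± 0.15. Esrrb, encoding ERRbeta, did not pass the test in the ERRbeta/ERRgamma class, with 0.28 ± 0.21 in soleus and -0.18 ± 0.21 in EDL. The groups are therefore called mKO-labelled and dmKO-labelled. A whole-gene signal need not show the loss of an exon.

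Muscle fibres differ in how they use this pathway. Fast glycolytic fibres carry much of the glycolytic enzymes, of the lactate dehydrogenase A subunit and of the lactate exporter MCT4 (Slc16a3), and release lactate. Slow oxidative fibres carry more of the B subunit (Ldhb) and of MCT1 (Slc16a1), which takes lactate up to be burned. Many genes of the pathway are textbook targets of hypoxia-inducible factors, which bind the core ACGTG, while ERRs bind a site with the core AAGGTCA.

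The promoters of the lactate dehydrogenase and lactate transporter genes are shown because the lactate results below turn on these 4 genes. Each is the 250 bases before the transcription start, 5′ to 3′ on the gene's strand, from RefSeq on GRCm38.p6, with every ACGTG on either strand in capitals. For Ldha the first of 2 listed starts is shown (chr7:46845554-46845803, plus strand), for Ldhb chr6:142507958-142508207 on the minus strand, for Slc16a1 chr3:104638414-104638663 on the plus strand, and for Slc16a3 chr11:120948817-120949066 on the plus strand.
Ldha: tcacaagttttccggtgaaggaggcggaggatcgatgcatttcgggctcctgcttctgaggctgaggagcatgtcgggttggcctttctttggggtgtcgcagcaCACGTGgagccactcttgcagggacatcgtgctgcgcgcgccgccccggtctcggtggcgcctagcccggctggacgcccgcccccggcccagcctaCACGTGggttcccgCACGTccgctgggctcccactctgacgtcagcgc
Ldhb: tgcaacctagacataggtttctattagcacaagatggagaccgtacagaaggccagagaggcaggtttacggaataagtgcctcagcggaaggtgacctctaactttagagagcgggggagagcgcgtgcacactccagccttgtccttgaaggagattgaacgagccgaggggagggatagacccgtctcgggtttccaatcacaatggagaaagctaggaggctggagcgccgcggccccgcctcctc
Slc16a1: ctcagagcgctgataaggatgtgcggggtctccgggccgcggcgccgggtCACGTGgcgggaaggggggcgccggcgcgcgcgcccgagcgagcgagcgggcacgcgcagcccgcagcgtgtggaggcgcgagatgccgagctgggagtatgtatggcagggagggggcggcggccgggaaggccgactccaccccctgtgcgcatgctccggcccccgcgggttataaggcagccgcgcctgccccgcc
Slc16a3: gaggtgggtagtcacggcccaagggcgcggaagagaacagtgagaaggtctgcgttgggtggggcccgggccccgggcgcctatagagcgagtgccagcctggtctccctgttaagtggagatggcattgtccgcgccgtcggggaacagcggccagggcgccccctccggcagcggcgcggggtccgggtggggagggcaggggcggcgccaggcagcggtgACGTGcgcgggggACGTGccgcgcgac
Ldha held 5 matches to ACGTG, Slc16a1 2 and Slc16a3 2, where a CACGTG counts once on each strand, and Ldhb held 0. AAGGTCA was in none of these 4 windows. Bases just past the listed start lay in an annotated transcript of the same gene for Ldhb, Slc16a1 and Slc16a3, but not for Ldha. The Ldha start is less certain to that extent. RefSeq promoters were matched for 28 of the 31 genes, all but Gpd1, Slc2a3 and Slc2a4. Among the first windows of these genes, 39.3% held ACGTG, against 16.6% of the first windows of all 27025 genes in the table. The ERR core was in 3.57% of them, in Eno1 alone, against 4.05% of all. The 27025 genes were not limited to those with a signal in these muscles, nor matched to the members in base composition. These are matches of letters in a window, not sites of binding.

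The baseline between the muscles was set by 9 WT libraries each. WT soleus had lower signals than WT EDL for most of the pathway and higher signals for Ldhb, Slc16a1 and a few general isoforms. Of the 31 genes, 7 were higher and 19 lower in WT soleus, where 54.4% of all 13270 genes tested were called, 30.8% higher and 23.6% lower. The median difference was -1.22 for the 31 genes, against 0.08 for all genes. Those not called were Hk2, Pfkl, Aldoc, Eno1 and Pfkfb1.

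**Figure D1:**
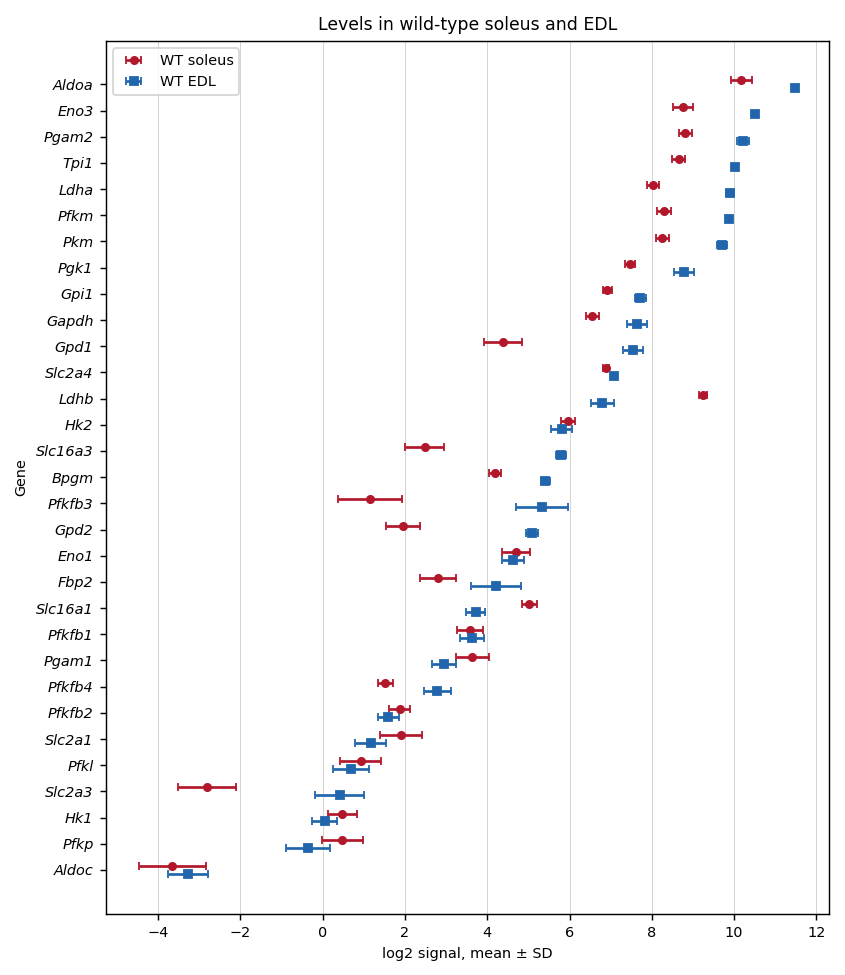
Mean log2 signal (x axis, ± SD, n = 9 libraries, 7 for Aldoc in EDL) of the 31 genes (rows) in WT soleus (red circles) and WT EDL (blue squares), ordered by the EDL mean. Ldhb stands at 9.24 in soleus and 6.79 in EDL, while Slc16a3 stands at 2.48 in soleus and 5.78 in EDL.

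At the entry of glucose the transporters went different ways. Slc2a4, encoding the insulin-responsive GLUT4, was at 6.89 ± 0.08 in WT soleus and 7.07 ± 0.07 in WT EDL (SD, n = 9 each), a difference of -0.18 ± 0.06. Slc2a1, encoding the general transporter GLUT1, was at 1.91 ± 0.51 in soleus and 1.17 ± 0.38 in EDL. Slc2a3, encoding GLUT3, differed far more, with -2.82 ± 0.70 in soleus and 0.41 ± 0.60 in EDL. The small GLUT4 difference was called over all WT libraries but not within any single class, where it lay between -0.17 and -0.19.

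In the phosphofructokinase, phosphoglycerate mutase and enolase pairs the muscle isoform was lower in WT soleus, and the general isoform was higher or not called. Pfkm (muscle phosphofructokinase) was lower by 1.58 ± 0.07 on the log2 scale in soleus, while Pfkp (the platelet type) was higher by 0.84 ± 0.21. Pgam2 (muscle phosphoglycerate mutase) differed by -1.40 ± 0.06 and the general Pgam1 by 0.69 ± 0.16. Eno3 (muscle enolase) differed by -1.75 ± 0.08, while Eno1, the general enolase, was at 4.70 ± 0.34 in soleus and 4.63 ± 0.26 in EDL and was not called. Hk2, the muscle hexokinase, was not called either (5.97 ± 0.17 in soleus, 5.81 ± 0.25 in EDL), and Hk1 was higher in soleus by 0.43 ± 0.12. Pfkp kept its call within the ERRalpha class and Hk1 within the ERRalpha/ERRgamma class only, at adjusted p = 0.0126 and adjusted p = 0.0399. Within the ERRbeta/ERRgamma class the calls of Pgam1 (0.32, adjusted p = 0.439) and Slc2a1 (0.42, adjusted p = 0.21) were lost.

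The largest fall in WT soleus was that of Pfkfb3, one of the bifunctional enzymes that make and remove the activator of phosphofructokinase. It was at 1.15 ± 0.78 in WT soleus and 5.32 ± 0.63 in WT EDL, a difference of -4.17 ± 0.29. Pfkfb4 differed by -1.26 ± 0.11, Pfkfb1 was not called, and Pfkfb2 differed by 0.27 ± 0.10, a call lost within all 3 classes. Both enzymes of the glycerol phosphate shuttle, which passes reducing power from glycolysis to the mitochondria, were lower in soleus: the cytosolic Gpd1 by -3.17 ± 0.18 and the mitochondrial Gpd2 by -3.12 ± 0.13. Fbp2, the muscle fructose bisphosphatase, differed by -1.41 ± 0.25 and Bpgm by -1.22 ± 0.07. The Fbp2 call was lost within the ERRalpha class (-1.01, adjusted p = 0.0628).

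Lactate handling also set the muscles apart. Ldha was at 8.03 ± 0.15 in WT soleus and 9.90 ± 0.10 in WT EDL, while Ldhb was at 9.24 ± 0.10 in soleus and 6.79 ± 0.28 in EDL (SD, n = 9 each). The Ldhb share of the summed Ldha and Ldhb signal was 69.8% ± 2.42 in soleus and 10.5% ± 1.47 in EDL. Slc16a3 differed by -3.31 ± 0.15 and Slc16a1 by 1.3 ± 0.08, and Slc16a1 made up 84.8% ± 4.96 of the summed signal of both transporters in soleus and 19.4% ± 1.61 in EDL. Such sums assume signals per length. The lowest signal of a gene fell by 0.80 ± 0.018 (SE, 1059 genes) per doubling of its exon length, where division by length would give a fall of 1. The shares are read between groups and not as amounts of protein.

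In soleus labelled ERRalpha/ERRgamma dmKO, the muscle-type enzymes of lower glycolysis, Ldha and the lactate exporter Slc16a3 were higher than in WT. Of the 31 genes, 8 rose and 3 fell, beside 12.7% of all 13385 genes tested (6.84% higher, 5.86% lower). The median change of the 31 genes was 0.29, against 0.11 for all genes. The rises were in Slc16a3, Eno3, Aldoa, Pgam2, Ldha, Pkm, Gapdh and Slc2a4, and the falls in Pfkfb2, Pfkfb1 and Slc16a1.

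**Figure D2:**
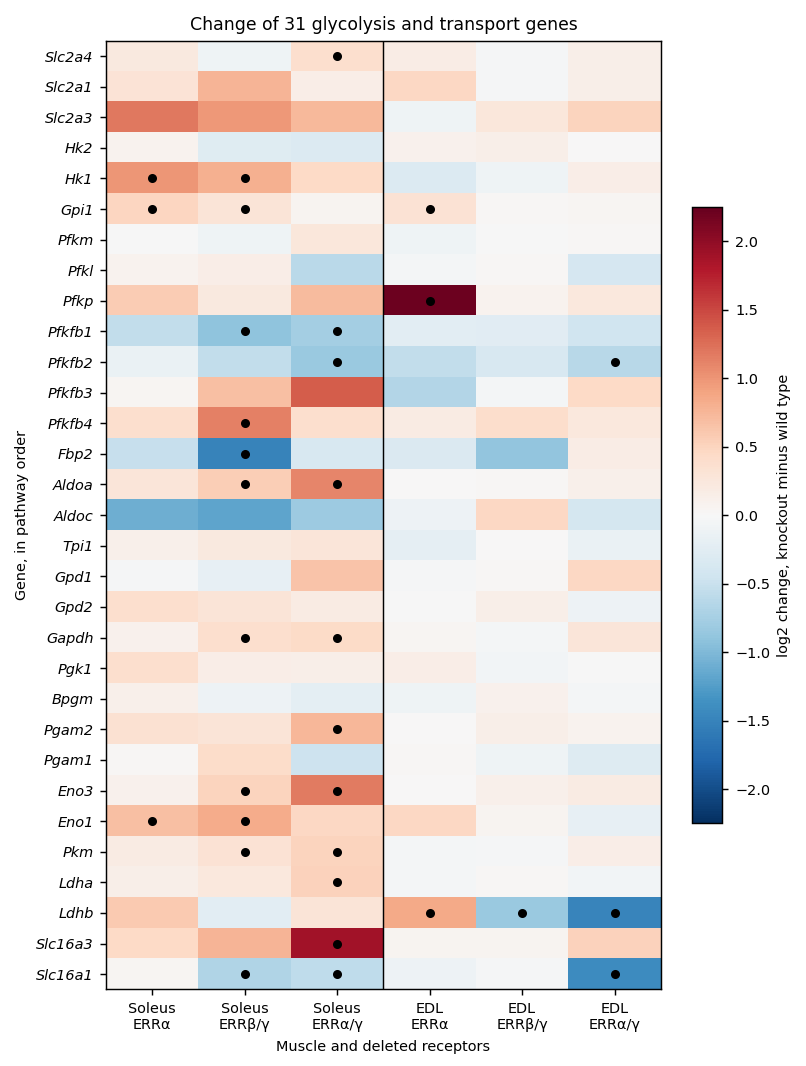
Log2 change, knockout-labelled minus WT (colour scale, red higher and blue lower), of the 31 genes (rows, in pathway order) in soleus and EDL of the 3 classes (columns), n = 3 libraries per group. Black dots mark calls at adjusted p under 0.05: 11 genes in ERRalpha/ERRgamma soleus, 11 in ERRbeta/ERRgamma soleus and 1 to 3 in the other columns.

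Slc16a3 was at 4.54, 4.42 and 4.59 in the dmKO-labelled soleus libraries, against 2.75, 2.30 and 2.83 in WT. The groups were far apart, and the change was 1.89 ± 0.26, or 3.71-fold (adjusted p = 5.16e-06). Even so the dmKO-labelled soleus stayed below every EDL library, where the lowest was 5.56. Slc16a1 moved the other way, with 4.24, 4.34 and 4.28 in dmKO-labelled libraries against 4.86, 4.95 and 4.76 in WT (-0.57 ± 0.14, adjusted p = 0.00633). Slc16a1 made up 46.0% ± 2.23 of the summed signal of both transporters in dmKO-labelled soleus and 82.2% ± 3.65 in WT soleus (SD, n = 3 each).

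Among the enzymes, Eno3 was at 9.79, 9.86 and 10.27 in dmKO-labelled soleus, against 8.89, 8.61 and 8.93 in WT. The lowest dmKO-labelled library was well above the highest WT one, a change of 1.16 ± 0.15 (adjusted p = 1.14e-06). Aldoa, encoding muscle aldolase, was at 11.39, 11.21 and 11.62 in dmKO-labelled soleus, against 10.30, 10.19 and 10.45 in WT, a change of 1.09 ± 0.15 (adjusted p = 4.26e-06). These Aldoa levels came close to those of WT EDL, which were 11.43 to 11.54. Aldoa ranked 9 or 10 among all genes in every EDL library and 10 to 30 in soleus, and quantile normalization ties the value of such a gene to its rank, so its change can be compressed near the top. Pgam2 was at 9.65, 9.58 and 9.77 in dmKO-labelled soleus and 8.85, 8.84 and 9.10 in WT (0.74 ± 0.11, adjusted p = 9.94e-06).

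Smaller rises were seen in further enzymes of lower glycolysis. Pkm, encoding muscle pyruvate kinase, changed by 0.51 ± 0.10 (adjusted p = 0.000411) and Gapdh by 0.42 ± 0.11 (adjusted p = 0.00935). Ldha was at 8.63, 8.42 and 8.65 in dmKO-labelled soleus, against 8.07, 7.96 and 8.12 in WT, without overlap (0.51 ± 0.10, adjusted p = 0.000819). Ldhb was not called in this muscle (0.29 ± 0.15), and its share of lactate dehydrogenase signal was 65.8% ± 1.96 in dmKO-labelled and 69.1% ± 2.72 in WT soleus. Of the steps above aldolase, Hk2, Gpi1 and Pfkm changed by -0.31, 0.06 and 0.26, and none of these was called. Below aldolase, Tpi1 and Pgk1 were not called either.

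**Figure D3:**
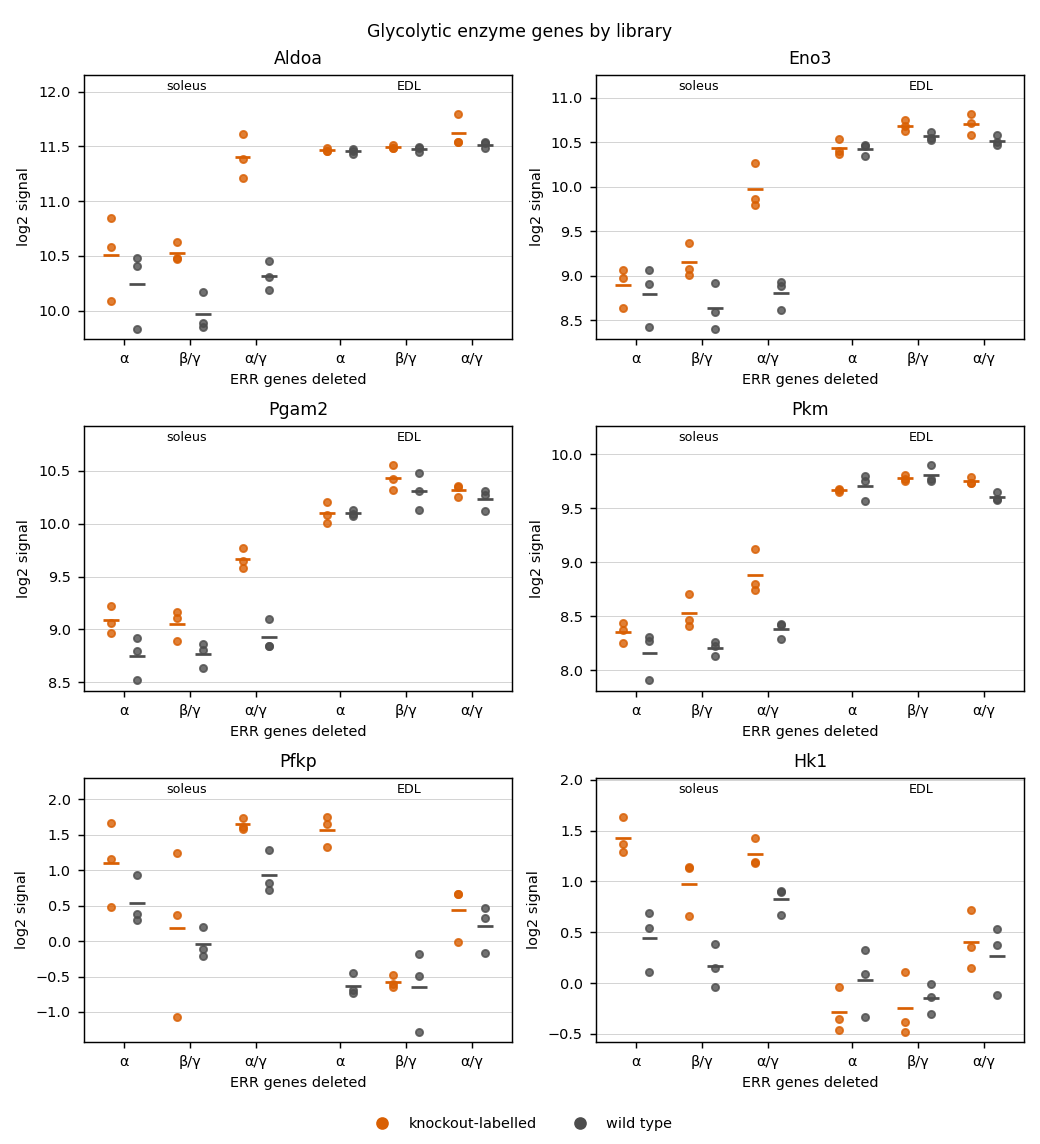
Log2 signal (y axis) of 6 glycolytic enzyme genes in every library (points) with group means (bars), by ERR genes deleted, in soleus (left) and EDL (right), knockout-labelled in orange beside WT in grey, n = 3 per group. The α/γ soleus points of Aldoa, Eno3, Pgam2 and Pkm lie above all WT soleus points, and the α EDL points of Pfkp, at 1.32 to 1.76, lie above all other EDL points.

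The regulatory enzymes fell or were unsettled. Pfkfb2 was at 1.31, 0.88 and 0.74 in dmKO-labelled soleus, against 1.70, 1.65 and 2.11 in WT (-0.84 ± 0.17, adjusted p = 0.00112). Pfkfb1, a liver and muscle type, changed by -0.77 ± 0.20 (adjusted p = 0.00787). Pfkfb3 had 2.20, 2.88 and 3.49 against 2.42, 0.91 and 1.16 in WT, with overlapping groups and no call, though it was called without WT library 1 (1.82, adjusted p = 0.0284). Slc2a4 was higher by 0.38 ± 0.11 (adjusted p = 0.0184).

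Of these 11 calls, 8 held in all 15 alternative fits: Slc16a3, Eno3, Aldoa, Pgam2, Pkm, Ldha, Pfkfb2 and Slc16a1. Gapdh was lost without dmKO-labelled library 1 (adjusted p = 0.06), Pfkfb1 without dmKO-labelled library 1 (adjusted p = 0.0992) or WT library 2 (adjusted p = 0.0545), or with only these 2 groups fitted (adjusted p = 0.0547). Slc2a4 was lost without WT library 1 (adjusted p = 0.0748), dmKO-labelled library 1 (adjusted p = 0.115) or dmKO-labelled library 2 (adjusted p = 0.0617), or on recentring (adjusted p = 0.113). The fit of only these 2 groups added calls for Eno1 (0.46), Pfkp (0.71), Pgam1 (-0.47) and Pfkl (-0.61). Fast-fibre markers moved with these genes in part: of 10, Actn3 (2.16 ± 0.58) and Mybpc2 (1.35 ± 0.44) rose and Tnnt3 (-0.77 ± 0.16) fell, and the summed log2 signal of the list was 13.9 to 14.2 in dmKO-labelled and 13.8 to 14.0 in WT soleus. None of 10 slow or IIA fibre markers was called. WT library 2 had the lowest Actn3 (3.58) and WT library 3 had the highest summed signal of nerve markers (7.15, against 4.32 to 5.07 in the other 5 libraries). WT library 2 also had a summed red-cell signal of 11.9, against 9.40 to 9.83 in the other 5. Of 6 markers each, 1 of endothelium (Tie1, -0.43 ± 0.11) and 1 of nerve (Mbp, -1.77 ± 0.54) fell and 1 of tendon (Scx, 2.13 ± 0.25) rose. All 6 endothelial markers had changes below 0. Of 6 general muscle markers Des (0.64 ± 0.13) rose and Mb (-0.66 ± 0.17) fell. The part of fibre type and of other cells in these changes was not tested.

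In EDL labelled ERRalpha/ERRgamma dmKO, the lactate genes of oxidative fibres fell, and no enzyme between hexokinase and pyruvate kinase was called. Of the 31 genes, 0 rose and 3 fell, while 18.1% of all 13358 genes tested were called, with 11.1% higher and 6.95% lower. The median change of the 31 genes was 0.04, against 0.13 for all genes. In limma, 5 of the 31 genes had an unadjusted p under 0.05, 1 of them with a positive change.

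Ldhb was at 5.45, 5.23 and 5.59 in dmKO-labelled EDL, against 6.66, 7.10 and 6.97 in WT. No dmKO-labelled library came within 1 log2 unit of a WT one, and the change was -1.49 ± 0.15, to 0.357 of the WT signal (adjusted p = 4.25e-09). Ldha was at 9.87 to 9.93 in dmKO-labelled and 9.95 to 9.98 in WT EDL and was not called. The Ldhb share of lactate dehydrogenase signal was 4.30% ± 0.54 in dmKO-labelled and 10.8% ± 1.33 in WT EDL (SD, n = 3 each). Slc16a1 was at 2.14, 2.31 and 2.58 in dmKO-labelled EDL, against 3.54, 3.96 and 3.76 in WT (-1.41 ± 0.14, adjusted p = 8.66e-09). Its share of the transporter signal was 5.73% ± 0.32 in dmKO-labelled and 18.8% ± 1.64 in WT EDL.

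**Figure D4:**
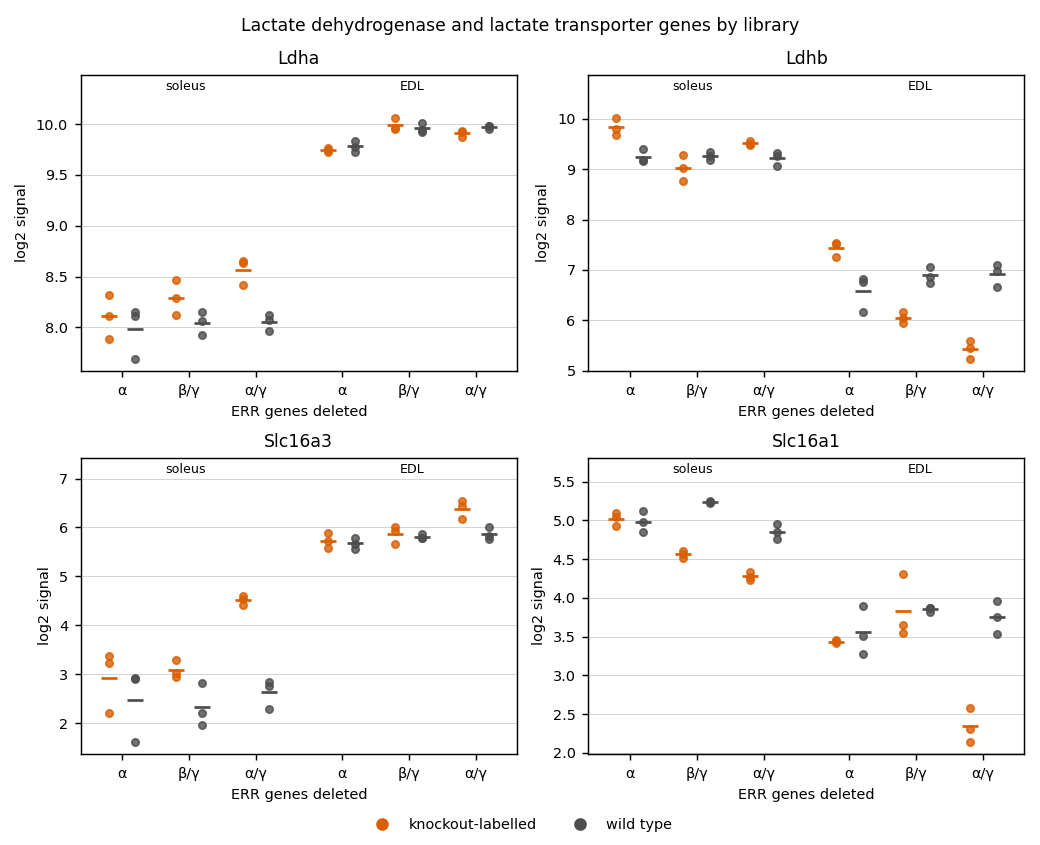
Log2 signal (y axis) of the lactate dehydrogenase genes (top) and lactate transporter genes (bottom) in every library (points) with group means (bars), by ERR genes deleted, in soleus and EDL, knockout-labelled in orange beside WT in grey, n = 3 per group. Slc16a3 in α/γ soleus (4.42 to 4.59) and Ldhb (5.23 to 5.59) and Slc16a1 (2.14 to 2.58) in α/γ EDL stand apart from their WT points.

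Pfkfb2 was the remaining fall in this EDL comparison, with 0.57, 0.86 and 0.83 in dmKO-labelled libraries against 1.13, 1.43 and 1.56 in WT (-0.62 ± 0.17, adjusted p = 0.0122). The Ldhb and Slc16a1 calls held in all 15 alternative fits. Pfkfb2 was lost without dmKO-labelled library 1 (adjusted p = 0.0706) or WT library 3 (adjusted p = 0.0726). Slc16a3 was at 6.18, 6.44 and 6.53 in dmKO-labelled EDL, against 5.83, 6.01 and 5.76 in WT, above all WT libraries but not called (0.52 ± 0.26). It was called, with Gpd1 and Slc2a3, when only these 2 groups were fitted (adjusted p = 0.0143), which gave 6 calls among the 31 genes, 3 higher and 3 lower. Among 10 slow or IIA fibre markers, 6 rose and 0 fell in this comparison, with changes from -1.06 to 3.55. Their summed log2 signal was 7.84 to 8.68 in dmKO-labelled and 7.27 to 8.49 in WT EDL. Of 6 markers each, 1 of endothelium fell (Kdr, -0.60 ± 0.17, with all 6 below 0) and 1 of tendon rose (Scx, 2.07 ± 0.25). Of 6 general muscle markers Des and Neb rose and Mb fell (-1.01 ± 0.17). Summed red-cell signals were 11.2 in dmKO-labelled library 3 and 12.1 in WT library 2, against 8.44 to 9.12 in the other 4 libraries. The part of fibre type and of other cells was not tested.

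In ERRbeta/ERRgamma dmKO-labelled soleus, the libraries were less alike than in any other group. Libraries 1, 2 and 3 correlated with the others of their group at 0.956, 0.961 and 0.970, below every library of the other groups. The summed log2 signal of 6 leukocyte markers set library 1 apart, at 5.71. This sum was 2.18 and 3.42 in the other dmKO-labelled libraries and 1.68 to 3.32 in WT. Library 1 had the highest Eno1, Slc2a1 (3.15) and Pgam1 (4.81) and the lowest Pfkfb1 (2.38) of its group. None of the 5 leukocyte markers that passed the filter was called against WT, with changes of 0.84 to 2.09. Of 6 fibroblast and tendon markers 1 was called, as higher, with changes of 0.04 to 2.10 over the list. The part of these cells in the results was not tested.

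In this comparison of ERRbeta/ERRgamma dmKO-labelled soleus with WT, the general isoforms Eno1 and Hk1, the regulatory enzyme Pfkfb4 and part of lower glycolysis were higher. Of the 31 genes, 8 rose and 3 fell, beside 6.71% of all 13375 genes tested (3.16% higher, 3.55% lower). The median change of the 31 genes was 0.24, against 0.05 for all genes. These calls rested on the spread pooled over all groups. With only its 6 libraries in the fit, 0 of the 31 genes and 4 of all genes were called.

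The other general enzyme isoforms Pfkl, Pfkp, Aldoc and Pgam1 were not called. Eno1 was at 5.92, 5.0 and 5.03 in dmKO-labelled libraries, against 4.40, 4.74 and 4.29 in WT (0.84 ± 0.17, adjusted p = 0.00185). Hk1, the hexokinase found in most tissues, was at 1.14, 0.66 and 1.13 in dmKO-labelled soleus, against 0.15, 0.39 and -0.03 in WT (0.81 ± 0.21, adjusted p = 0.0166). Groups did not overlap in either gene. Pfkfb4 was at 2.92, 2.44 and 2.30 in dmKO-labelled soleus, against 1.27, 1.35 and 1.64 in WT (1.13 ± 0.19, adjusted p = 0.000395). The other rises were smaller: Aldoa by 0.56 ± 0.15, Eno3 by 0.51 ± 0.15, Gapdh by 0.38 ± 0.11, Pkm by 0.32 ± 0.10 and Gpi1 by 0.28 ± 0.08.

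Fbp2 fell most, with 0.86, 1.72 and 0.43 in dmKO-labelled soleus, against 2.89, 1.98 and 2.64 in WT (-1.5 ± 0.42, adjusted p = 0.0287). Slc16a1 was at 4.57, 4.60 and 4.52 in dmKO-labelled soleus, against 5.23, 5.24 and 5.25 in WT. Both groups were tight, and the change was -0.68 ± 0.14 (adjusted p = 0.00343). None of 6 endothelial markers was called in this comparison, with changes of -0.51 to 0.01, and the part of these cells was not tested. Pfkfb1 changed by -0.91 ± 0.20 (adjusted p = 0.00457). The Slc16a1 share of the transporter signal was 73.6% ± 2.09 in dmKO-labelled and 88.0% ± 3.29 in WT soleus.

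Without dmKO-labelled library 1, 6 of the 31 genes were called, and Hk1, Aldoa, Gapdh, Pfkfb1 and Fbp2 were lost. Without WT library 1 there were 6 calls, without WT library 3 there were 7, and Pkm and Gpi1 were each lost on leaving out any 1 of the 5 libraries other than dmKO-labelled library 1. Eno1, Pfkfb4 and Slc16a1 kept their calls whichever library was left out, but the Eno1 change was 0.54 (adjusted p = 0.0257) without dmKO-labelled library 1. When libraries were recentred on genes detected in all, 4 of the 31 genes rose and 4 fell. The fast-fibre light chain Mylpf was the 1 of 10 fast markers called, higher by 0.80 ± 0.18.

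EDL of the ERRbeta/ERRgamma class gave a single call. Ldhb was at 5.94, 6.04 and 6.17 in dmKO-labelled EDL, against 6.86, 7.06 and 6.74 in WT, a change of -0.84 ± 0.15 (adjusted p = 0.0049), where 0.218% of all 13333 genes were called (0.0600% higher, 0.158% lower). Its share of lactate dehydrogenase signal was 6.12% ± 0.67 in dmKO-labelled and 10.6% ± 0.82 in WT EDL. The call was lost without WT library 2 (-0.76, adjusted p = 0.0673) and when only these 2 groups were fitted (adjusted p = 0.0732). Slow or IIA fibre markers moved with it: 3 of 10 fell, Myl2 by -4.21 ± 0.63, Myl3 by -2.67 ± 0.56 and Myh2 by -1.97 ± 0.35. Their summed log2 signal was 6.40 to 6.87 in dmKO-labelled and 8.06 to 8.50 in WT EDL, and the part of fibre type in the Ldhb fall was not tested.

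The ERRalpha class gave 3 rises and 0 falls among the 31 genes in each muscle. In EDL, where 3.28% of all 13285 genes were called (1.82% higher, 1.46% lower), Pfkp was at 1.65, 1.32 and 1.76 in mKO-labelled libraries, against -0.46, -0.73 and -0.70 in WT. The groups were about 2 log2 units apart, a change of 2.20 ± 0.37, or 4.61-fold (adjusted p = 0.000456), and the call held in all 15 alternative fits. Even at this level Pfkp stood at 0.326% ± 0.055 of the summed Pfkm and Pfkp signal, against 0.0657% ± 0.0063 in WT EDL. Pfkp in WT EDL of the ERRalpha/ERRgamma class was at -0.17, 0.47 and 0.33, above all 3 WT libraries of the ERRalpha class.

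Ldhb was at 7.53, 7.25 and 7.51 in ERRalpha mKO-labelled EDL, against 6.82, 6.16 and 6.75 in WT (0.85 ± 0.15, adjusted p = 0.000656). This was a rise where the other classes showed falls. Its share of lactate dehydrogenase signal was 16.8% ± 1.63 in mKO-labelled and 9.99% ± 2.39 in WT EDL, and the call was lost when only these 2 groups were fitted (adjusted p = 0.0591). WT library 2 was low for Ldhb, and the call held without it. Of 10 slow or IIA fibre markers 1 rose, Myoz2 (1.32 ± 0.29). Their summed log2 signal was 8.22, 7.48 and 8.75 in mKO-labelled EDL, against 7.68, 6.5 and 7.72 in WT, lowest in the same WT library 2, and their part in the Ldhb rise was not tested. Gpi1, glucose phosphate isomerase, rose by 0.33 ± 0.08 (adjusted p = 0.0254) and was lost without any 1 of 4 libraries: mKO-labelled 1 (adjusted p = 0.117), mKO-labelled 3 (adjusted p = 0.0674), WT 2 (adjusted p = 0.0601) and WT 3 (adjusted p = 0.14). It was also lost on recentring (adjusted p = 0.0706) and with only these 2 groups fitted (adjusted p = 0.0658).

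In ERRalpha soleus, where 0.710% of all 13374 genes were called (0.464% higher, 0.247% lower), Hk1 was at 1.64, 1.37 and 1.29 in mKO-labelled libraries, against 0.69, 0.11 and 0.54 in WT (0.99 ± 0.21, adjusted p = 0.0228). Gpi1 was at 7.48, 7.37 and 7.22 in mKO-labelled soleus, against 6.97, 6.92 and 6.72 in WT (0.49 ± 0.08, adjusted p = 0.00271). Eno1 was just past the threshold (0.68 ± 0.17, adjusted p = 0.0489), and this call was lost in 10 of 15 alternative fits, among them the omission of any 1 of the 6 libraries, with adjusted p up to 0.173. Groups did not overlap in these genes. Without mKO-labelled library 1, mKO-labelled library 2, WT library 2 or WT library 3, 1 call remained each time, that of Gpi1, and with only these 2 groups in the fit 0 of the 31 genes and 2 of all genes were called. Ldhb was at 10.01, 9.68 and 9.80 in mKO-labelled soleus, against 9.40, 9.16 and 9.19 in WT, without overlap but just short of the threshold (0.58 ± 0.15, adjusted p = 0.0555). WT library 3 had low Slc16a3 (1.61, against 2.91 and 2.92 in the other WT libraries) together with a low fast-fibre marker Myh4 (3.84, against 6.39 and 8.32).

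**Figure D5:**
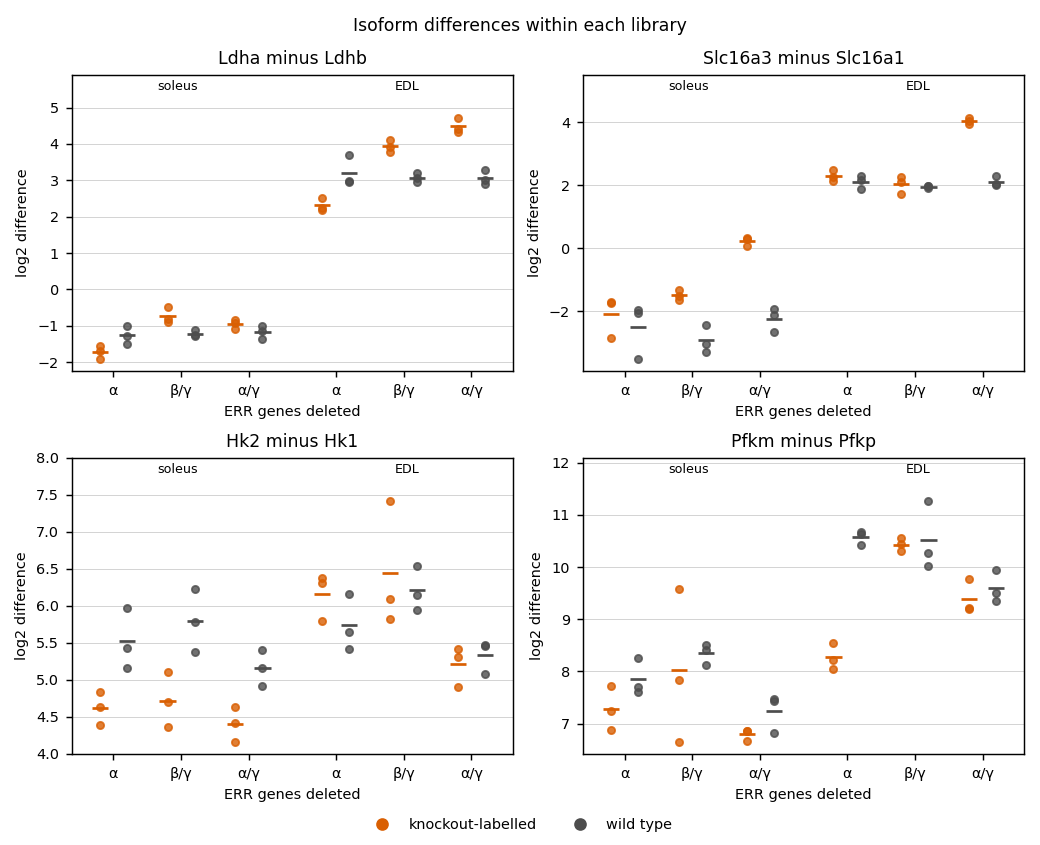
Log2 signal of the isoform named first minus that named second (y axis) within every library (points), with group means (bars), by ERR genes deleted, in soleus and EDL, knockout-labelled in orange beside WT in grey, n = 3 per group. For Slc16a3 minus Slc16a1, α/γ soleus averages 0.23, against -2.23 in its WT, and α/γ EDL averages 4.04, against 2.12 in its WT.

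Whether a class acted differently in the muscles was tested as the change in soleus minus the change in EDL. In the ERRalpha/ERRgamma class 7 of the 31 genes had a higher change in soleus and 0 a lower one, where 2.07% of all 13342 genes were called (1.50% higher, 0.570% lower). Ldhb differed by 1.78 ± 0.21 (adjusted p = 9.76e-07), with a fall in EDL and no call in soleus. Slc16a3 differed by 1.38 ± 0.37 (adjusted p = 0.043), Aldoa by 0.98 ± 0.21 (adjusted p = 0.00622), Eno3 by 0.98 ± 0.21 (adjusted p = 0.0054) and Slc16a1 by 0.84 ± 0.20 (adjusted p = 0.0206). Pgam2 differed by 0.65 ± 0.15 and Ldha by 0.58 ± 0.15. Aldoa, Eno3 and Ldhb held in all 21 alternatives. Ldha was called in 10 and Slc16a3 in 6 of them, and 4 calls remained without EDL dmKO-labelled library 1 or 2, EDL WT library 2 or soleus dmKO-labelled library 3.

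In the ERRalpha class 0 of the 31 genes differed between the muscles by limma, with 5 at an unadjusted p under 0.05, where 0.0151% of all 13262 genes were called. In the ERRbeta/ERRgamma class there were 0 as well, with 11 at an unadjusted p under 0.05, where 0.210% of all 13305 genes were called (0.0526% higher, 0.158% lower). Leaving out soleus dmKO-labelled library 2 brought Hk1 (1.07, adjusted p = 0.0464) and Eno1 (0.95, adjusted p = 0.023) past the threshold in the ERRbeta/ERRgamma class.

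The classes were compared within EDL by the difference of their changes, each against its own WT. The ERRalpha/ERRgamma change minus the ERRalpha change was called for 0 higher and 3 lower genes, beside 4.81% of all genes (1.33% higher, 3.48% lower): Ldhb (-2.34 ± 0.21, adjusted p = 1.96e-09), Pfkp (-1.97 ± 0.52, adjusted p = 0.0192) and Slc16a1 (-1.29 ± 0.20, adjusted p = 5.42e-05). The ERRalpha/ERRgamma change minus the ERRbeta/ERRgamma change was called for Slc16a1 alone (-1.39 ± 0.20, adjusted p = 1.26e-05), beside 6.87% of all genes (2.81% higher, 4.06% lower). The ERRbeta/ERRgamma change minus the ERRalpha change was called for Ldhb alone (-1.70 ± 0.21, adjusted p = 3.85e-05), beside 0.415% (0.166% higher, 0.249% lower). Thus the Ldhb change in EDL differed between ERRalpha and each of the double classes, and the difference between the double classes was not called (-0.64 ± 0.21, adjusted p = 0.0563).

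Within soleus, the ERRalpha/ERRgamma change minus the ERRalpha change was called for 3 higher genes and 1 lower, beside 4.75% of all genes (1.83% higher, 2.93% lower). Slc16a3 differed by 1.44 ± 0.37 (adjusted p = 0.0168), Eno3 by 1.07 ± 0.21 (adjusted p = 0.00138), Aldoa by 0.83 ± 0.21 (adjusted p = 0.0163) and Gpi1 by -0.43 ± 0.12 (adjusted p = 0.029). Without ERRalpha/ERRgamma WT library 2, there was 1 call, and there were 2 without ERRalpha WT library 2, ERRalpha mKO-labelled library 3 or ERRalpha/ERRgamma dmKO-labelled library 3. The ERRalpha/ERRgamma change minus the ERRbeta/ERRgamma change gave 0 calls by limma, with 9 of the 31 genes at an unadjusted p under 0.05, beside 1.20% of all genes (0.322% higher, 0.883% lower). The ERRbeta/ERRgamma change minus the ERRalpha change gave 0 as well, with 4 at an unadjusted p under 0.05, beside 0.532% (0.0899% higher, 0.442% lower). These do not show that the classes act alike: for Slc16a3 the ERRalpha/ERRgamma change was larger than the ERRbeta/ERRgamma change by 1.13 ± 0.37 (adjusted p = 0.145).

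Genes changed in more than 1 comparison are given here together. Slc16a1 fell in 3 of the 6 comparisons with WT, in soleus of both double classes and in ERRalpha/ERRgamma EDL. Ldhb was called in all 3 EDL comparisons and in 0 of 3 in soleus. Gpi1, Aldoa, Eno1, Eno3, Hk1, Gapdh, Pkm, Pfkfb1 and Pfkfb2 were each called in more than 1 comparison, and each moved the same way where called. Of these genes, only Aldoa, Eno3, Pkm and Pfkfb2 had a call that held in all 15 alternative fits, each in ERRalpha/ERRgamma soleus. Hk2, Pfkm, Pfkl, Aldoc, Tpi1, Pgk1, Pgam1, Pfkfb3, Slc2a1, Slc2a3, Gpd1, Gpd2 and Bpgm were called in none of the 6. Aldoc, the brain aldolase, lay between -5.02 and -2.43 where detected and was missing in 5 libraries.

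Some of these genes have near-identical processed copies in the genome, and how the authors' counting treated reads shared with them is not given in the sources used here. Counting only annotated pseudogenes at 95% identity or more over at least 300 bases, Gapdh had 74, Pgk1 4, Ldha 3 and Eno1 2, and Gpi1, Ldhb, Pgam1, Pkm and Tpi1 had 1 each. Values of these genes are uncertain to that extent, Gapdh most of all.

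Outside the 31 genes, 21 of 32 other genes of the pathway passed the filter. Among the 21, 3 rose and 0 fell in ERRalpha/ERRgamma EDL, and 1 and 0 in ERRbeta/ERRgamma EDL. Over all genes tested, 11.1% rose and 6.95% fell in the former EDL, and 0.0600% and 0.158% in the latter. In soleus the counts were 1 and 0 for ERRalpha/ERRgamma, beside 6.84% and 5.86% of all genes. For ERRbeta/ERRgamma soleus they were 1 and 2, beside 3.16% and 3.55% of all genes. The rises in ERRalpha/ERRgamma EDL included Bsg, the chaperone that carries lactate transporters to the membrane (0.26 ± 0.06, adjusted p = 0.00285), and Slc16a8, a further lactate transporter at low signal (1.82 ± 0.60, adjusted p = 0.0335). Bsg was at 8.60, 8.56 and 8.60 in dmKO-labelled EDL, against 8.38, 8.31 and 8.29 in WT, so the groups were close but did not overlap. In ERRbeta/ERRgamma soleus, the falls were those of the glucose transporter gene Slc2a12 (-1.21 ± 0.18, adjusted p = 0.000103) and of Gpd1l (-0.37 ± 0.10, adjusted p = 0.0225). The Slc2a12 change differed between soleus and EDL of that class by -1.16 ± 0.25 (adjusted p = 0.0462). In the ERRalpha class 0 of the 21 genes were called by limma in either muscle. There 1 had an unadjusted p under 0.05 in EDL and 2 in soleus. Of all genes, 3.28% were called in EDL of that class and 0.710% in soleus.

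Of 25 regulators of glucose uptake and glycolysis, Tbc1d4, which holds GLUT4 back from the membrane until insulin signals, fell in 4 of the 6 comparisons. It was at 1.93, 2.60 and 2.20 in ERRbeta/ERRgamma dmKO-labelled soleus, against 3.39, 3.11 and 3.40 in WT (-1.06 ± 0.19, adjusted p = 0.000634). It changed by -0.84 ± 0.19 in ERRalpha/ERRgamma EDL, -0.79 ± 0.19 in ERRalpha EDL and -0.76 ± 0.19 in ERRalpha/ERRgamma soleus. Among hypoxia regulators, Hif1a itself was not called in any of the 6. Epas1, encoding the related factor HIF-2alpha, fell in both double classes in soleus (-0.51 ± 0.13 for ERRbeta/ERRgamma, -0.48 ± 0.13 for ERRalpha/ERRgamma) and in ERRalpha/ERRgamma EDL (-0.56 ± 0.13). The oxygen sensors Egln1 (-0.35 ± 0.09) and Egln3 (-0.94 ± 0.28) fell in ERRalpha/ERRgamma EDL, and Egln1 fell in ERRbeta/ERRgamma soleus (-0.29 ± 0.09).

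The counts for the 25 regulators, which include the receptor genes, were 3 higher and 6 lower in ERRalpha/ERRgamma EDL. There 11.1% of all genes were higher and 6.95% lower. The counts were 3 and 3 in ERRalpha/ERRgamma soleus, beside 6.84% and 5.86% of all genes. In ERRbeta/ERRgamma soleus they were 1 and 5, beside 3.16% and 3.55% of all genes. In ERRalpha EDL 1 rose and 1 fell, beside 1.82% and 1.46% of all genes. In the remaining comparisons 0 were called by limma. There 2 had an unadjusted p under 0.05 in ERRbeta/ERRgamma EDL and 6 in ERRalpha soleus. Of all genes, 0.218% were called in that EDL and 0.710% in that soleus. Ppargc1a, encoding the coactivator PGC-1alpha that works with ERRs, was at 5.13, 4.55 and 4.31 in ERRalpha/ERRgamma dmKO-labelled soleus, against 2.93, 2.68 and 3.70 in WT (1.56 ± 0.45, adjusted p = 0.0177). Insr, the insulin receptor gene, fell in ERRbeta/ERRgamma soleus (-0.46 ± 0.12), as did Six4, a factor of fast-fibre genes (-0.60 ± 0.18). Mef2a rose in ERRalpha/ERRgamma soleus (0.30 ± 0.07) and EDL (0.29 ± 0.07), and Mef2c in that EDL (0.47 ± 0.10).

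Per library, 13667 to 14951 genes had a value. Depth cannot be read from quantile-normalized values, so no counting intervals are given. All 6 general muscle markers were detected, and all 10 fast markers were lower and all 10 slow or IIA markers higher in WT soleus than in WT EDL.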

How the data were processed

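RNA from whole soleus and EDL muscles of 36 libraries was sequenced. The deposited log2 values had been quantile normalized by the authors with Partek 6.6, per the submitters' processing notes and the file headers. Neither an aligner nor a counting method is given in the sources used here. Missing values were left missing. Of 45802 rows, 27904 held no value and 27 had date-like symbols, and genes were kept where their mean exceeded -5.24, the 25th percentile. In R 4.3.3, limma 3.58.1 fitted all libraries at once (group means, variance trend with signal) and tested 16 contrasts, with Benjamini-Hochberg adjustment within each. The procedure was tested on simulated data, in which a gene had the same spread in all groups and muscles were not paired by animal. That test cannot show how the fit behaves where groups differ in spread. Columns were grouped by their names; those of ERRalpha EDL name no class and were placed by an animal code shared with soleus columns. Library numbers only name libraries. The submitters' design gives 3 biological replicates per group. Soleus and EDL came from the same animal in 14 cases, with correlations of their deviations between -0.068 and 0.324. Promoters were read with Python 3.11.15 and copies counted with BLAST 2.17.0. All 31 members are named. Further genes were named from lists, mostly where called, and not every called gene of these lists is named. A gene of the list of other pathway genes, counted among its calls, is not reported here. The members and lists were chosen with earlier results of these data known. Alternatives covered filters, missing values, scaling, a pseudocount of 0.1, the spread, the animal block and leaving out each library.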

Additional observations from a re-analysis of the deposited data

Results flagged for a closer look

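Among the 9 WT libraries of a muscle, 4 genes had a library whose gap to its nearest neighbour, divided by the whole range, was above the 95% critical value of Dixon for 9 samples, which chance passes in about 1 of 20 groups. With 31 genes in both muscles, a few such gaps are therefore expected by chance. Gapdh in soleus had a ratio of 0.538 and Ldha in soleus one of 0.503, and both came from ERRalpha WT library 3, with Gapdh at 6.21 against 6.47 and Ldha at 7.69 against 7.92 in the nearest library. Ldhb in EDL had 0.539, from ERRalpha WT library 2 at 6.16 against 6.66. Tpi1 in EDL had 0.597, from ERRalpha WT library 1 at 9.85 against 10.00.

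The ERRalpha/ERRgamma change differed between soleus and EDL for 7 genes by the interaction term of the limma fit. The difference, soleus minus EDL, was 1.78 for Ldhb, 1.38 for Slc16a3, 0.982 for Aldoa, 0.976 for Eno3, 0.836 for Slc16a1, 0.654 for Pgam2 and 0.575 for Ldha.

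Between classes, the difference of the changes was tested in the same fit. In EDL, ERRalpha/ERRgamma minus ERRalpha gave -2.34 for Ldhb, -1.97 for Pfkp and -1.29 for Slc16a1. ERRalpha/ERRgamma minus ERRbeta/ERRgamma gave -1.39 for Slc16a1, and ERRbeta/ERRgamma minus ERRalpha gave -1.7 for Ldhb. In soleus, ERRalpha/ERRgamma minus ERRalpha gave 1.44 for Slc16a3, 1.07 for Eno3, 0.826 for Aldoa and -0.425 for Gpi1.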

How the results depend on the processing

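Of 5653 recomputed log2 changes of the 31 genes, which cover the comparisons with WT, between WT muscles and of soleus minus EDL changes but not those between classes, 5497 kept their direction and side of the threshold, 132 lost a call, 24 gained one and 0 reversed. With only the compared groups fitted, the calls among the 31 genes were 0 in ERRbeta/ERRgamma EDL, 6 in ERRalpha/ERRgamma EDL, 0 in ERRalpha soleus and 0 in ERRbeta/ERRgamma soleus. In that fit they were 2 for ERRalpha/ERRgamma minus ERRbeta/ERRgamma in EDL, 2 for ERRbeta/ERRgamma minus ERRalpha in EDL and 2 for ERRalpha/ERRgamma minus ERRalpha in soleus. The stricter filter gave 2, 2 and 1 for ERRalpha/ERRgamma minus ERRbeta/ERRgamma in EDL, ERRbeta/ERRgamma minus ERRalpha in EDL and the same difference in soleus, and recentring gave 2 and 1 for the last pair. The causes were not tested.

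Leaving out each library in turn gave 2 to 3 calls in ERRalpha EDL, 0 to 1 in ERRbeta/ERRgamma EDL, 2 to 4 in ERRalpha/ERRgamma EDL, 1 to 2 in ERRalpha soleus, 6 to 9 in ERRbeta/ERRgamma soleus, 8 to 11 in ERRalpha/ERRgamma soleus and 25 to 26 between the WT muscles. For soleus minus EDL changes it gave 0 to 0 (ERRalpha), 0 to 2 (ERRbeta/ERRgamma) and 4 to 6 (ERRalpha/ERRgamma). Between classes in EDL it gave 2 to 3 (ERRalpha/ERRgamma minus ERRalpha), 1 to 2 (ERRalpha/ERRgamma minus ERRbeta/ERRgamma) and 1 to 2 (ERRbeta/ERRgamma minus ERRalpha), and in soleus 1 to 5, 0 to 3 and 0 to 2 in the same order.

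With the animal as a replicate block, at a consensus correlation of 0.130, Ldhb joined the calls in ERRalpha soleus, which came to 4 (adjusted p = 0.05 after rounding, just under the threshold); counts were 11 in each double class in soleus and 26 between WT muscles, and no other count changed. Depth is unknown, so counting error could not be set beside these values, and genes of low signal such as Pfkp, Hk1, Pfkfb2 and Aldoc rest on few reads to an unknown degree. Recentring split the ERRbeta/ERRgamma soleus calls into 4 higher and 4 lower genes.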
